A study of Mus musculus with 9 samples.

Results

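The genes described are 9 transcription factor genes on the output side of the circadian clock: Nr1d1, Nr1d2, Rora, Dbp, Tef, Hlf, Nfil3, Ciart and Bhlhe40. They were chosen by name as a gene family after Nr1d2 and Dbp had been seen among the genes of lowest p in stressed against non-stressed mice, so the members' values in that comparison are given as a description, with no p-value. Counts of members called there appear only where processing is varied, and support nothing. All 9 were found among the 36172 features by NCBI gene ID, and all 9 were among the 15144 genes that passed a filter on low counts. RNA sequencing was done on the medial prefrontal cortex of DBA2/J mice, an inbred strain, in 3 groups of 3 libraries. NS mice were not stressed, and their treatment label names saline. SA:ANH-vehicle and SA:ANH-KDM5Ci mice had 5 days of social defeat (smSDS) and were of the subtype labelled SA:ANH; the former carry a saline label and the latter an inhibitor of KDM5C, a histone H3K4 demethylase. Stress, subtype and handling cannot be told apart between NS and the other groups. Age, the dose and time of the inhibitor, the hour of tissue collection, and whether a group's libraries are separate mice are not stated by the labels. The p-values therefore cover the spread among these libraries, which may be technical.

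In the mammalian clock, CLOCK and BMAL1 (the product of Arntl) activate genes through E-box elements, and the PER and CRY proteins they induce repress them in turn. The same elements drive REV-ERB alpha and beta (Nr1d1 and Nr1d2), nuclear receptors that repress Arntl through ROR elements, where ROR alpha (Rora) activates. They also drive the PAR bZIP factors DBP, TEF and HLF, which activate genes with a D-box, a site that NFIL3 occupies as a repressor. CIART and BHLHE40 are further repressors of CLOCK and BMAL1. In forebrain these transcripts oscillate over the day and some also respond to neuronal activity and glucocorticoids.

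Total counts per library ran from 29845097 to 42196472, and a member had from 244 counts (Rora) to 17002 counts (Tef) in a library, so all were well above the limit that a count of 0 allows (3 counts). Excitatory neuron markers, among them Slc17a7 at 1481 to 1687 CPM (counts scaled to library size), were present in every library. NS replicate 1 stood apart by its immediate early genes, whose summed level over 11 genes was 1128 CPM. The other NS samples had 324 and 305 CPM, and the next highest sum was 789 CPM, in SA:ANH-vehicle replicate 1. The SA:ANH-KDM5Ci libraries were below all others in the sum of 6 meningeal markers, with values of 42.5 to 46.7 CPM against 51.1 to 92.9 CPM. Their sums reached higher values for 6 striatal markers (169 to 414 CPM against 123 to 231 CPM) and for 6 oligodendrocyte markers (2636 to 3451 CPM against 1446 to 2954 CPM). Of 6 endothelial markers, 2 fell in SA:ANH-KDM5Ci against either group (adjusted p under 0.05). Of all genes tested, 2.51% passed against SA:ANH-vehicle and 3.97% against NS. The sum of 4 blood cell genes was 235 to 272 CPM in NS and 372 to 495 CPM in the stressed groups. Of these, 1 of 4 rose from NS to SA:ANH-vehicle, where 0.0132% of all genes passed, and 4 of 4 from NS to SA:ANH-KDM5Ci. No marker tested was at 0, and the part of these lists in the results was not tested.

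The sequences upstream of 4 members are shown because these genes were called in opposite directions (Nr1d1 and Nr1d2) or hold clock or cAMP elements (Ciart and Hlf). RefSeq promoter windows of GRCm38.p6, 250 bases before to 50 after a start site, matched 8 of the 9 members, with 9 windows. Searched on both strands were CACGTG for the E-box, CACGTT for its variant, TTATGTAA and TTACGTAA for the D-box, AGGTCA for the core of the ROR element and TGACGTCA for the cAMP response element (CRE); none of these motifs lies whole within another. Printed 5′ to 3′ is the stretch upstream of the outermost annotated start, with matches in capitals. Nr1d1 lies at chr11:98775378-98775627, Nr1d2 at chr14:18239128-18239356, Ciart at chr3:95882258-95882478 and Hlf at chr11:90390918-90391167, all on the minus strand.
Nr1d1: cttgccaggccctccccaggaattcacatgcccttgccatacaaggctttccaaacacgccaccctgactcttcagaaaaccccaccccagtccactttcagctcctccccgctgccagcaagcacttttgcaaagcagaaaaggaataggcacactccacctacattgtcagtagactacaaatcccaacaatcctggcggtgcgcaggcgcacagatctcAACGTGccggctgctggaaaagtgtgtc
Nr1d2: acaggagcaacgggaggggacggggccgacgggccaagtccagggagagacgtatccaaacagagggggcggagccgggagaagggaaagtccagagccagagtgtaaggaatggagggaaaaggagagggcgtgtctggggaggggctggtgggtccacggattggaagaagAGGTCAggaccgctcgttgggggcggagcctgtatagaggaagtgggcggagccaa
Ciart: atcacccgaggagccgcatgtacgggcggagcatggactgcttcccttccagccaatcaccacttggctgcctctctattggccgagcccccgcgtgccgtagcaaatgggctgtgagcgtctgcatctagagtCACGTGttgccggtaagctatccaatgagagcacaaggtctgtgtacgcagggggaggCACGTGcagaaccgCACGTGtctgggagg
Hlf: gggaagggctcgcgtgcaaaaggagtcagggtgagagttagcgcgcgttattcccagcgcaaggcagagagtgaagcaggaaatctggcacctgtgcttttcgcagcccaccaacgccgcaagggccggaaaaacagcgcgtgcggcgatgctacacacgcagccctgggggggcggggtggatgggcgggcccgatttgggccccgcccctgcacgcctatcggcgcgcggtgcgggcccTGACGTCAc

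The Ciart window held 3 E-boxes, beginning 116, 58 and 44 bases before the start site, and each of the 2 Tef windows held 1, beginning 127 and 138 bases before. Among all 32851 windows of the RefSeq table, 7.15% held at least 1 E-box. Nr1d1 had the E-box variant 28 bases before its start site (4.68% of all windows). Nr1d2 had no E-box in its window and a ROR core 77 bases before the start site, as Nfil3 did at 12 bases (16.3% of all windows). The CRE of Hlf began 9 bases before the start site (1.79% of all windows). No D-box was found in the 9 windows, against 1.06% of all. The Dbp and Rora windows held none of these letters. A match is a description of the window and not a bound site.

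Per kilobase of exon (the union of a gene's GENCODE vM21 exons), the members formed 3 tiers. Tef was highest at a mean of 49.7 CPM per kb over the 9 libraries, followed by Nr1d1 at 38.5, Hlf at 36.7, Nr1d2 at 28.5, Dbp at 26.2 and Bhlhe40 at 25.7 CPM per kb. Each of these overlapped its neighbour in that order over the 9 libraries. Nfil3 at 5.03 and Ciart at 4.89 CPM per kb overlapped each other and lay below all values of Bhlhe40. Rora, whose annotated span of 734843 bases is by far the longest, was lowest at 0.713 CPM per kb. Nr1d1 had the higher mean of the REV-ERB pair per length in every group, by a narrower margin in the stressed groups: it was at 43.4 ± 1.36 and Nr1d2 at 24.9 ± 0.537 CPM per kb in NS (SD, n = 3), and they were at 33.2 ± 1.22 and 29.8 ± 1.17 CPM per kb in SA:ANH-KDM5Ci.

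**Figure D1:**
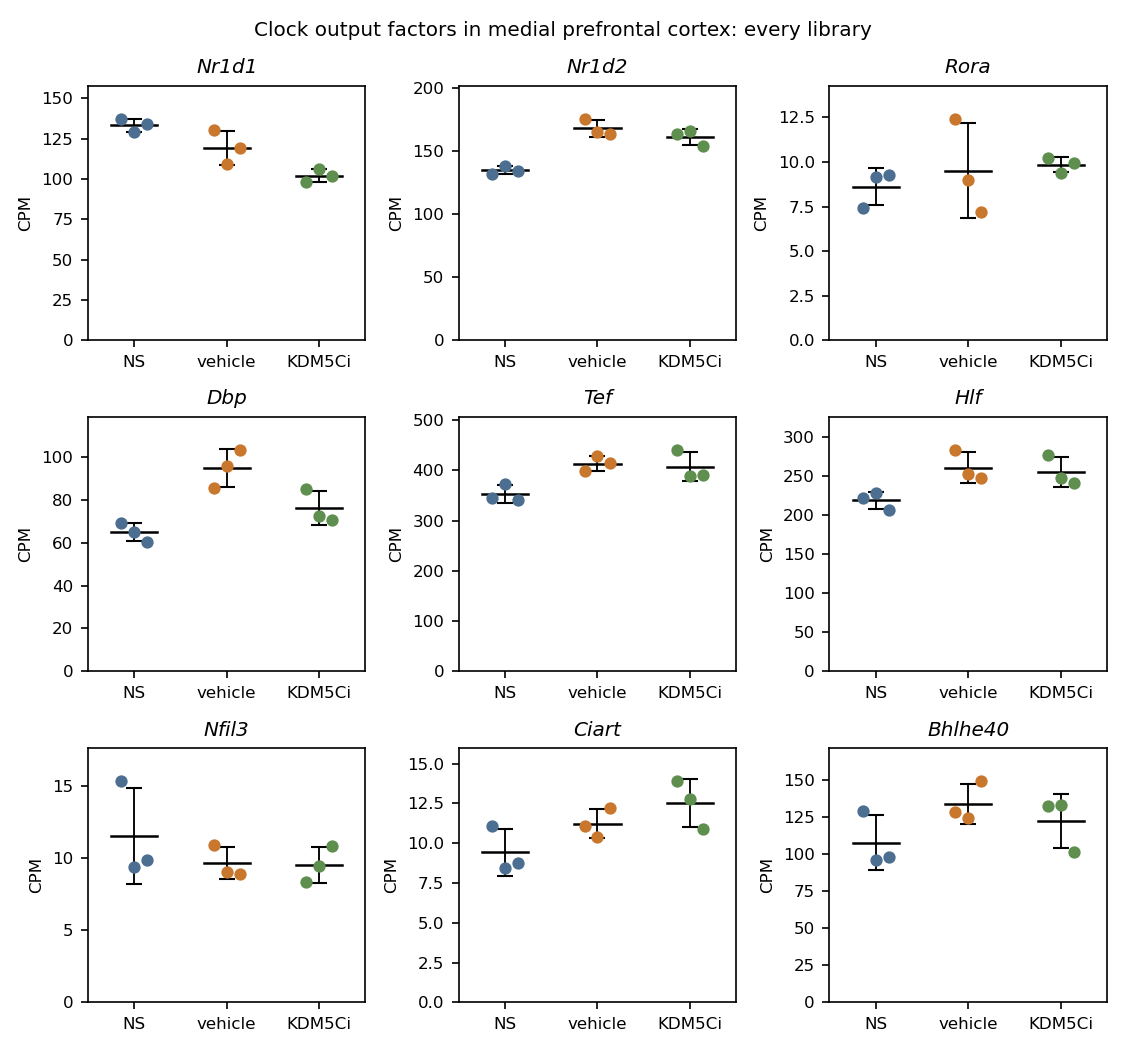
Level of each clock output gene in CPM (y axis from 0) in the 9 libraries of the 3 groups (x axis), with points for libraries, a line for the group mean and bars for 1 SD. Nr1d1 goes from 134 CPM in NS to 102 CPM in SA:ANH-KDM5Ci, while Nr1d2, Dbp, Tef and Hlf lie above NS in all libraries of both stressed groups.

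The REV-ERB receptors changed in opposite directions from NS to SA:ANH-KDM5Ci: Nr1d1 fell and Nr1d2 rose. Nr1d1 (gene 217166, chromosome 11, 98767932 to 98775377, GRCm38, minus strand) was at 137, 129 and 134 CPM in NS, at 130, 109 and 119 CPM in SA:ANH-vehicle and at 98.1, 106 and 102 CPM in SA:ANH-KDM5Ci. The SA:ANH-KDM5Ci libraries were below all others, and SA:ANH-vehicle overlapped NS. Against NS, SA:ANH-KDM5Ci was lower, at -0.39 on the log2 scale (SE 0.06, adjusted p = 0.00349), or 0.76-fold. Against SA:ANH-vehicle the log2 fold change was -0.23 (SE 0.06, adjusted p = 0.0906), which did not pass. It was -0.15 without SA:ANH-vehicle replicate 1 (adjusted p = 0.255) and passed without SA:ANH-vehicle replicate 2 (-0.29, adjusted p = 0.0423).

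Nr1d2 (gene 353187, chromosome 14, 18204056 to 18239106, minus strand), the other REV-ERB receptor, was at 132, 138 and 134 CPM in NS. It was at 175, 165 and 163 CPM in SA:ANH-vehicle and at 163, 166 and 154 CPM in SA:ANH-KDM5Ci. Every stressed library was above every NS library, and the stressed groups overlapped. The log2 fold change was 0.32 (SE 0.05) from NS to SA:ANH-vehicle, 0.26 (SE 0.05, adjusted p = 0.00992) from NS to SA:ANH-KDM5Ci, and -0.06 (SE 0.05, adjusted p = 0.659) between the stressed groups. The call against NS was lost without NS replicate 3 (adjusted p = 0.0506) or SA:ANH-KDM5Ci replicate 1 (adjusted p = 0.0512), at log2 fold changes of 0.26 and 0.25, whereas that of Nr1d1 held in each of the 9 fits without 1 library (adjusted p up to 0.0268). Nr1d2 was noticed by its difference between SA:ANH-vehicle and these NS libraries, so its p-values are not independent of that choice.

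Within a library the ratio of the REV-ERB pair does not depend on how libraries are scaled. The log2 ratio of Nr1d2 to Nr1d1, both in CPM, was -0.06, 0.09 and 0.00 in NS, 0.43, 0.60 and 0.45 in SA:ANH-vehicle, and 0.73, 0.65 and 0.59 in SA:ANH-KDM5Ci. NS lay apart from both stressed groups, which overlapped, with a difference of means of 0.48 and 0.65 against NS. Since Nr1d2 was noticed by its difference between SA:ANH-vehicle and NS, this ratio is a description only. Nr1d1 overlaps the 3′ end of Thra, the thyroid hormone receptor alpha gene on the opposite strand, over 1075 bases, and 263 exon bases, or 8.55% of the exon bases of Nr1d1, are shared. Since use of the strand in counting was not given, reads there cannot be told apart. Thra lay between 403 and 477 CPM. Its log2 fold changes were -0.06, 0.00 and -0.06 in the 3 comparisons.

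Rora (gene 19883, chromosome 9, 68653404 to 69388246, plus strand), the activator that competes with the REV-ERB receptors, showed no such pattern. It was at 7.43, 9.14 and 9.27 CPM in NS, at 12.4, 8.99 and 7.18 CPM in SA:ANH-vehicle, and at 10.2, 9.37 and 9.96 CPM in SA:ANH-KDM5Ci. SA:ANH-vehicle held both the highest and the lowest value. SA:ANH-KDM5Ci did not overlap NS, though the gap from 9.27 to 9.37 CPM is small. The log2 fold changes against NS were 0.16 (SE 0.17) and 0.19 (SE 0.17, adjusted p = 0.585), and that between the stressed groups was 0.04 (SE 0.16, adjusted p = 0.949). Without SA:ANH-vehicle replicate 1, the log2 fold change of SA:ANH-vehicle against NS was -0.09.

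Of the PAR bZIP activators, Dbp spanned the widest range. Dbp (gene 13170, chromosome 7, 45705100 to 45710203, plus strand) was at 69.2, 65.1 and 60.4 CPM in NS, at 85.5, 95.7 and 103 CPM in SA:ANH-vehicle, and at 85.1, 72.5 and 70.3 CPM in SA:ANH-KDM5Ci. The 3 groups did not overlap: SA:ANH-vehicle was highest and SA:ANH-KDM5Ci in between, though the gap from 85.1 to 85.5 CPM is small. Relative to NS the log2 fold change was 0.54 (SE 0.08) in SA:ANH-vehicle and 0.23 (SE 0.08, adjusted p = 0.169) in SA:ANH-KDM5Ci, the latter 0.14 without SA:ANH-KDM5Ci replicate 1. That of SA:ANH-KDM5Ci against SA:ANH-vehicle was -0.32 (SE 0.08, adjusted p = 0.0721) and passed without SA:ANH-KDM5Ci replicate 1 (-0.40, adjusted p = 0.0297) or without SA:ANH-vehicle replicate 1 (-0.38, adjusted p = 0.0412). In the other 7 fits without 1 library it did not pass (adjusted p up to 0.265). Dbp was noticed by its difference between these SA:ANH-vehicle libraries and NS, so its p-values between the stressed groups and against NS are not independent of that choice. Dbp shares 737 bases with Sphk2, a sphingosine kinase gene on the opposite strand, which was at 24.1 to 31.8 CPM and had log2 fold changes of -0.16, -0.05 and -0.20.

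Tef (gene 21685, chromosome 15, 81802673 to 81826863, plus strand) was at 344, 373 and 340 CPM in NS, at 398, 428 and 414 CPM in SA:ANH-vehicle, and at 440, 389 and 391 CPM in SA:ANH-KDM5Ci. Hlf (gene 217082, chromosome 11, 90336535 to 90390917, minus strand) was at 222, 228 and 207 CPM in NS, at 283, 252 and 247 CPM in SA:ANH-vehicle, and at 277, 247 and 241 CPM in SA:ANH-KDM5Ci. For both genes all stressed libraries were above all NS libraries, and the stressed groups overlapped. From NS to SA:ANH-vehicle the log2 fold change was 0.23 (SE 0.06) for Tef and 0.25 (SE 0.07) for Hlf. From NS to SA:ANH-KDM5Ci it was 0.21 (SE 0.06, adjusted p = 0.0674) and 0.22 (SE 0.07, adjusted p = 0.0901), which did not pass, and between the stressed groups -0.02 (SE 0.06) and -0.03 (SE 0.07).

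Against NS, the log2 fold changes of Dbp, Tef and Hlf were 0.23, 0.21 and 0.22 in SA:ANH-KDM5Ci, and 0.54, 0.23 and 0.25 in SA:ANH-vehicle. The log2 ratio of Dbp to Tef, both in CPM, was -2.31, -2.52 and -2.49 in NS and -2.37, -2.42 and -2.48 in SA:ANH-KDM5Ci. It was -2.22, -2.16 and -2.01 in SA:ANH-vehicle, above every library of the other groups. Since Dbp was noticed by its difference between SA:ANH-vehicle and NS, this ratio is a description only. The log2 ratio of Dbp to Hlf overlapped in every comparison, with group means of -1.76, -1.46 and -1.75: SA:ANH-vehicle replicate 1 was at -1.73, below NS replicate 1 at -1.68 and SA:ANH-KDM5Ci replicate 1 at -1.70. The ratio of Tef to Hlf stayed within 0.49 to 0.76, with group means of 0.69, 0.67 and 0.67 and groups that overlapped.

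**Figure D2:**
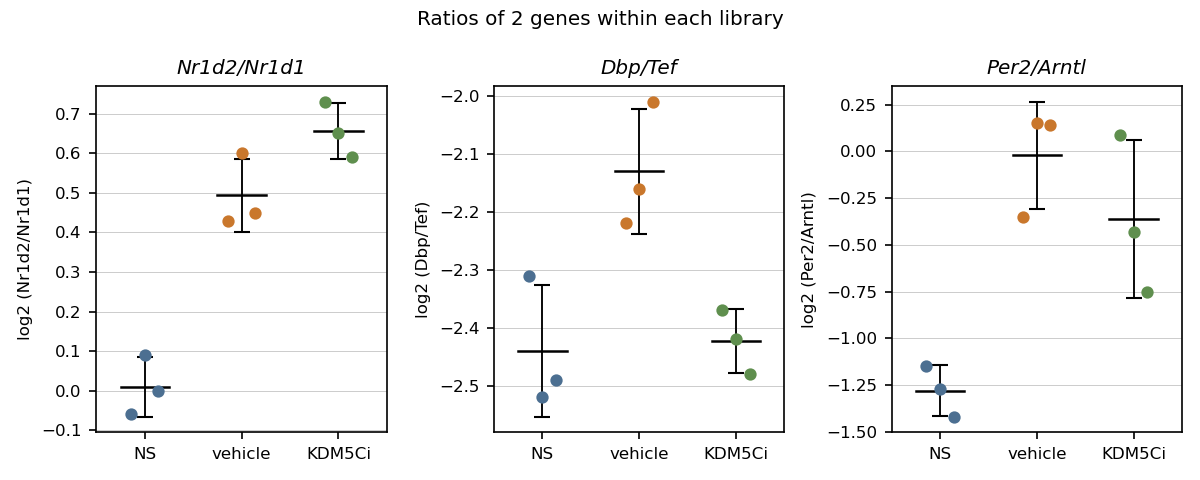
Log2 ratio of CPM of 2 genes within each library (y axis) by group (x axis), with points for libraries, lines for group means and bars for 1 SD. Nr1d2/Nr1d1 is near 0 in NS and at 0.43 to 0.73 in the stressed groups, Dbp/Tef is highest in SA:ANH-vehicle, and Per2/Arntl lies from -1.42 to -1.15 in NS and above that in every stressed library. Nr1d2 and Dbp were noticed by their difference between SA:ANH-vehicle and NS, so their ratios are descriptions only.

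Nfil3 (gene 18030, chromosome 13, 52967209 to 52982878, minus strand), the D-box repressor, turned on a single library. It was at 15.3, 9.36 and 9.84 CPM in NS, at 10.9, 9.04 and 8.91 CPM in SA:ANH-vehicle, and at 8.30, 9.44 and 10.8 CPM in SA:ANH-KDM5Ci. NS replicate 1, the library with the highest immediate early genes, was above all others, and the groups overlapped. The log2 fold changes against NS were -0.26 (SE 0.18) and -0.27 (SE 0.18, adjusted p = 0.461). Without NS replicate 1 they were 0.0079 and -0.0025.

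Ciart (gene 229599, chromosome 3, 95878500 to 95882257, minus strand), the CLOCK-BMAL1 repressor with 3 E-boxes upstream, was at 11.1, 8.44 and 8.73 CPM in NS. It was at 11.1, 10.4 and 12.2 CPM in SA:ANH-vehicle and at 13.9, 12.8 and 10.9 CPM in SA:ANH-KDM5Ci. NS overlapped the stressed groups only through NS replicate 1, and the stressed groups overlapped each other. The log2 fold change was 0.25 (SE 0.12) from NS to SA:ANH-vehicle, 0.41 (SE 0.12, adjusted p = 0.0848) from NS to SA:ANH-KDM5Ci, and 0.16 (SE 0.12, adjusted p = 0.618) between the stressed groups. Without NS replicate 1 that of SA:ANH-KDM5Ci against NS was 0.55 (adjusted p = 0.0224), and without SA:ANH-KDM5Ci replicate 3 it also passed (adjusted p = 0.0492). An antisense gene, C920021L13Rik, overlaps Ciart over 3749 bases and was at most at 0.57 CPM.

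Bhlhe40 (gene 20893, chromosome 6, 108660629 to 108666925, plus strand), a repressor that neuronal activity can also induce, was at 129, 96.0 and 97.7 CPM in NS. It was at 128, 124 and 149 CPM in SA:ANH-vehicle and at 132, 133 and 101 CPM in SA:ANH-KDM5Ci. NS replicate 1 lay among the stressed libraries, and SA:ANH-KDM5Ci replicate 3 lay near the lower NS libraries. The log2 fold changes were 0.31 (SE 0.14) for SA:ANH-vehicle against NS, 0.18 (SE 0.14, adjusted p = 0.552) for SA:ANH-KDM5Ci against NS and -0.13 (SE 0.14, adjusted p = 0.758) between the stressed groups. Without NS replicate 1 the first was 0.47 and the second 0.34 (adjusted p = 0.156). The last was -0.0091 without SA:ANH-KDM5Ci replicate 3 and -0.04 without SA:ANH-vehicle replicate 3.

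As a family the members read as follows. From NS to SA:ANH-vehicle, the comparison in which Nr1d2 and Dbp were noticed, 7 of 9 fold changes were positive, with a median log2 fold change of 0.25 against 0.00 over all genes. Groups did not overlap for 4 members (Nr1d2, Dbp, Tef and Hlf), where 15.1% of all genes tested did not. Nothing is read from these counts, since that comparison led to the choice of genes.

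Between the stressed groups, which differ by the inhibitor label, 0 of 9 members were called by edgeR, against 2.51% of all genes tested. Of the 9, 2 (Nr1d1 and Dbp) had an unadjusted p under 0.05, against 14.2% of all genes. DESeq2 called 2 of 9, against 3.18% of all genes, and limma-voom called 0 of 9, against 2.28%. Nr1d1 and Dbp were lower with groups that did not overlap, where 18.9% of all genes tested did not overlap in either direction. The median log2 fold change was -0.03 against 0.00 over all genes. From NS to SA:ANH-KDM5Ci, 2 of 9 were called, Nr1d1 lower and Nr1d2 higher, against 3.97% of all genes tested. Groups did not overlap for 6 of 9, with Nr1d2, Dbp, Tef, Hlf and Rora higher and Nr1d1 lower, where 23.5% of all genes tested did not. For Rora the gap was only from 9.27 to 9.37 CPM. The median was 0.21. DESeq2 called 5 of 9 in this comparison, against 5.52% of all genes. This comparison shares its NS libraries with SA:ANH-vehicle against NS, so it is no independent repeat of it. The call of Nr1d2 is therefore not independent of the choice of genes. The comparison between the stressed groups shares its SA:ANH-vehicle libraries with the one that led to the choice of genes. The lower Dbp there is therefore not independent of that choice, and no effect of the inhibitor is read from it.

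**Figure D3:**
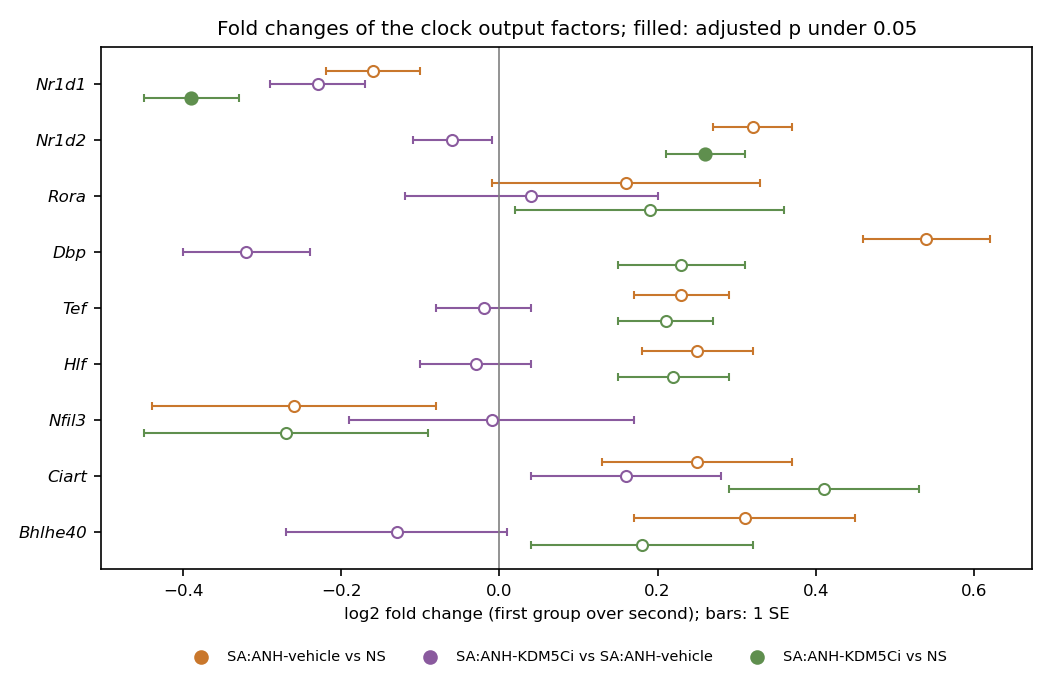
Log2 fold change of each clock output gene (x axis, bars of 1 SE) in the 3 comparisons, with filled points for an adjusted p under 0.05. The filled points are Nr1d1 at -0.39 and Nr1d2 at 0.26, both for SA:ANH-KDM5Ci against NS; Dbp is at 0.54, -0.32 and 0.23.

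The core loop that drives these genes was measured by 17 of 18 listed clock genes (Bhlhe41 was not tested). In each of the 3 comparisons 0 of the 17 were called by edgeR, where 0.0132%, 2.51% and 3.97% of all genes were, and their median log2 fold changes were 0.05, 0.05 and 0.11. At an unadjusted p under 0.05 there were 4, 4 and 7 of the 17, against 8.21%, 14.2% and 18.4% of all genes. DESeq2 called 3, 1 and 3 of them, against 0.535%, 3.18% and 5.52% of all genes. By limma-voom 0, 1 and 1 were called, against 0.0198%, 2.28% and 3.70%. Nothing is read from the first counts, since SA:ANH-vehicle against NS led to the choice of genes driven by this loop. Per2, a repressor of the loop, was at 21.9, 21.1 and 20.2 CPM in NS, at 33.3, 46.1 and 47.0 CPM in SA:ANH-vehicle, and at 44.3, 34.7 and 28.4 CPM in SA:ANH-KDM5Ci. All stressed libraries were above all NS libraries. Its log2 fold change from NS to SA:ANH-KDM5Ci was 0.76 (SE 0.18, adjusted p = 0.0551).

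Per3, another period gene, had means of 51.7 ± 4.04, 68.2 ± 0.668 and 57.5 ± 6.59 CPM (SD, n = 3) in NS, SA:ANH-vehicle and SA:ANH-KDM5Ci. Cry1, a cryptochrome repressor, was at 13.7 ± 0.704, 17.0 ± 0.628 and 17.6 ± 2.52 CPM. From NS to SA:ANH-KDM5Ci it differed by 0.36 on the log2 scale (SE 0.10, adjusted p = 0.0511). Arntl, the REV-ERB target that encodes BMAL1, was at 51.2 ± 2.92, 42.2 ± 0.495 and 45.4 ± 3.36 CPM. NS was above both stressed groups in every library, with log2 fold changes of -0.28 (SE 0.06) and -0.17 (SE 0.06, adjusted p = 0.151). Per1, a period gene that glucocorticoids and activity also induce, differed from Per2 and Per3. It was at 94.7, 66.2 and 66.5 CPM in NS, at 73.1, 65.3 and 79.0 CPM in SA:ANH-vehicle, and at 109, 109 and 95.4 CPM in SA:ANH-KDM5Ci. SA:ANH-KDM5Ci was above all others, though the gap from 94.7 CPM in NS replicate 1 to 95.4 CPM is small. The log2 fold change was 0.46 (SE 0.14, adjusted p = 0.109) against NS and 0.53 (SE 0.14, adjusted p = 0.0983) against SA:ANH-vehicle. Without NS replicate 1 both were called, at 0.66 (adjusted p = 0.000933) and 0.53 (adjusted p = 0.00195).

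**Figure D4:**
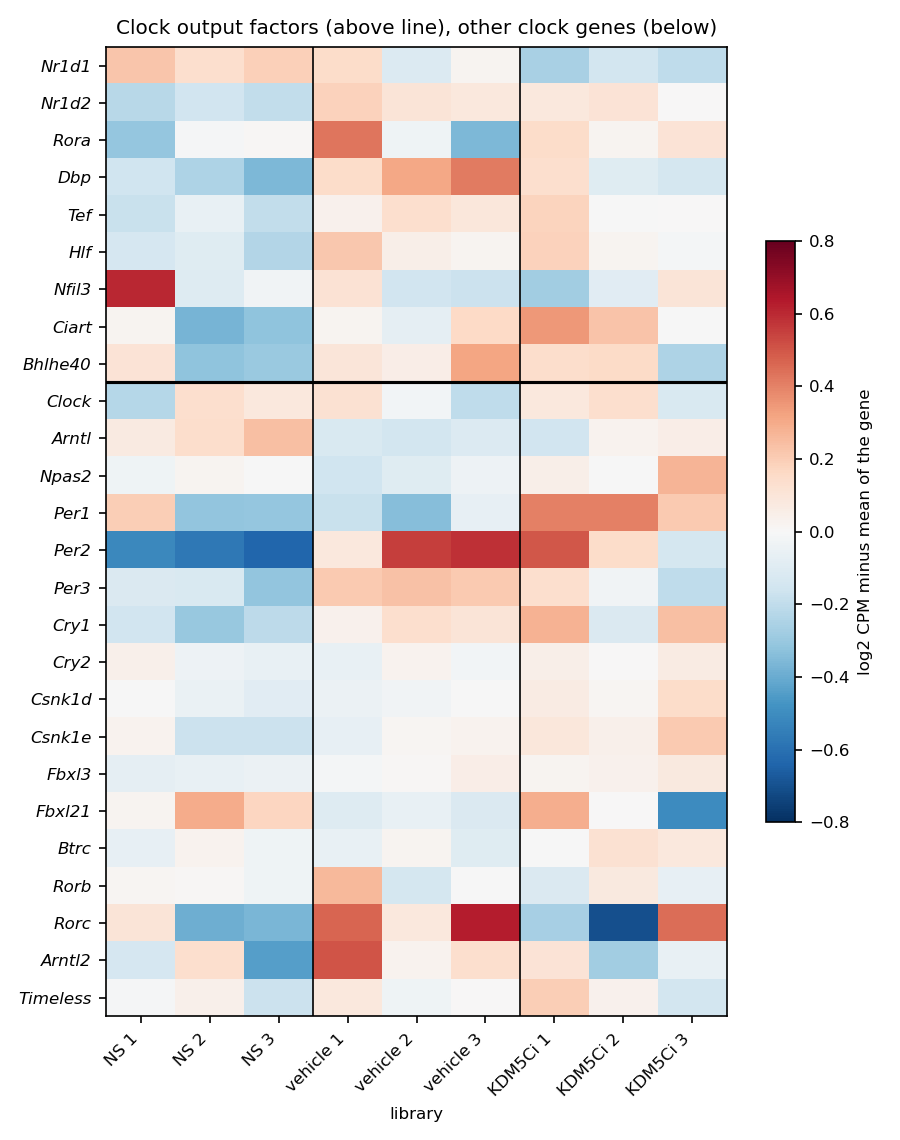
Log2 CPM minus the mean of each gene over the 9 libraries (colour scale from -0.8 to 0.8; columns are libraries, rows genes), with the 9 clock output genes above the line and 17 other clock genes below it. Per2 and Dbp are blue in the 3 NS libraries and red in all SA:ANH-vehicle libraries, Nr1d1 and Arntl are red in NS, and Nfil3 stands out in NS replicate 1.

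Among 4 tested PAR bZIP targets of 6 listed, 1 fell from SA:ANH-vehicle to SA:ANH-KDM5Ci, where 2.51% of all genes were called. From NS to SA:ANH-KDM5Ci 1 rose, where 3.97% of all genes were called. Pdxk, the pyridoxal kinase that PAR bZIP factors control in brain, was at 177 ± 8.10, 192 ± 6.36 and 206 ± 9.75 CPM (SD, n = 3) in NS, SA:ANH-vehicle and SA:ANH-KDM5Ci. It rose by 0.22 on the log2 scale (SE 0.05, adjusted p = 0.0345) from NS to SA:ANH-KDM5Ci, a call lost in 5 of the 9 fits without 1 library (adjusted p up to 0.173). Cyp2a5, a cytochrome P450 of the liver, was at 1.71, 2.80 and 0.471 CPM in SA:ANH-vehicle and at 0.194 to 0.468 CPM in the other groups. It had only 6 to 100 counts in a library. It fell by 2.80 on the log2 scale (SE 0.59, adjusted p = 0.0346) from SA:ANH-vehicle to SA:ANH-KDM5Ci, a call lost in 7 of 9 such fits (adjusted p up to 0.167). Por and Alas1 passed in no comparison.

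Of the listed REV-ERB targets, Arntl, Clock, Npas2 and Cry1 are also among the clock genes above. Fabp7, a fatty acid-binding protein of astrocytes that Nr1d1 represses, was at 27.4, 20.4 and 34.6 CPM in NS, at 17.8, 19.1 and 19.4 CPM in SA:ANH-vehicle, and at 14.5, 20.6 and 17.1 CPM in SA:ANH-KDM5Ci. The NS mean was highest, though NS overlapped SA:ANH-KDM5Ci, with log2 fold changes of -0.55 (SE 0.18) and -0.65 (SE 0.18, adjusted p = 0.0924).

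In the corepressor complex that REV-ERB receptors recruit, Ncor1 and Hdac3, the subunits best known in REV-ERB repression, were at 259 to 303 CPM and 68.3 to 79.8 CPM and passed in no comparison.

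By profile over the 9 libraries, only Dbp had group means of log2 CPM that spanned at least 0.5, with a span of 0.54. The 3 genes of 13511 whose centred log2 CPM came closest to it were Per3, P4ha1 and Zbtb40. Their root mean square differences from Dbp were 0.092 for Per3, 0.10 for P4ha1, a prolyl hydroxylase of collagen, and 0.127 for Zbtb40, a zinc finger gene. P4ha1 was at 44.3, 58.1 and 48.2 CPM on average in NS, SA:ANH-vehicle and SA:ANH-KDM5Ci, and Zbtb40 at 10.8, 15.8 and 14.6 CPM. The other members spanned from 0.20 (Rora) to 0.41 (Ciart).

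The summed level of genes that respond to glucocorticoids was higher in every SA:ANH-KDM5Ci library than in any library of the other groups. Of 14 such genes, 0 were called from NS to SA:ANH-vehicle, where only 0.0132% of all genes were. In that comparison 3 of the 14 had an unadjusted p under 0.05 by edgeR, against 8.21% of all genes. From SA:ANH-vehicle to SA:ANH-KDM5Ci 8 rose and 0 fell, where 2.51% of all genes were called, with a median log2 fold change of 0.58. The 1 negative value there was that of Nr3c1, the glucocorticoid receptor gene, at -0.23 (SE 0.06, adjusted p = 0.0722). Per1 is on this list as well as among the clock genes above. From NS to SA:ANH-KDM5Ci 9 rose and 0 fell, where 3.97% of all genes were called. Their summed level was 787 to 889 CPM in NS, 840 to 922 CPM in SA:ANH-vehicle and 1156 to 1325 CPM in SA:ANH-KDM5Ci. Among 11 immediate early genes 0 were called in any comparison, where 0.0132%, 2.51% and 3.97% of all genes were. At an unadjusted p under 0.05 there were 0 of the 11, against 8.21%, 14.2% and 18.4% of all genes. The part of either list in the members' levels was not tested. In bulk tissue fewer cells of a type and less RNA per cell cannot be told apart.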

How the data were processed

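RNA was sequenced from medial prefrontal cortex of 9 DBA2/J samples in 3 groups, taken from the titles. The authors deposited 1 table of expected counts, which need not be whole. Trimmomatic 0.32, TopHat2 2.0.13, Bowtie2 2.2.3 and mm10 are named, per the submitters' processing notes. Which program counted the reads, and whether it used strand, is not given in the sources used here. Of 36172 features, 32891 got a symbol from RefSeq's GRCm38.p6 annotation (mm10).

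Expected counts were rounded. filterByExpr kept 15144 genes, libraries were scaled by TMM, and 1 edgeR 4.0.16 quasi-likelihood fit (robust; R 4.3.3) of all 9 libraries gave each comparison. Every adjusted p is its Benjamini-Hochberg value over all 15144 genes, with a threshold of 0.05. SE is the log2 fold change divided by the square root of F. The fit was also run on simulated data for SA:ANH-vehicle against NS only, with added changes larger than those of most members. Nothing is concluded from that run here. CPM uses TMM-scaled sizes. The likeness of profiles used log2(CPM + 0.01) of genes at a mean of at least 1 CPM and named the 3 closest genes for members spanning at least 0.5. Named genes were the members, the tested genes of the fixed clock, target and corepressor lists, and overlapping genes. Some results for the REV-ERB target and corepressor lists are not reported here. The members and lists were chosen with earlier results of these data known. Alternatives were DESeq2 1.42.0, its size factors, limma-voom (limma 3.58.1), no TMM, other filters and thresholds, no robust moderation, only the 2 groups compared, a replicate block, and leaving out libraries singly.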

Additional observations from a re-analysis of the deposited data

How the results depend on the processing

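Comparisons are named in the order SA:ANH-vehicle against NS, SA:ANH-KDM5Ci against SA:ANH-vehicle, and SA:ANH-KDM5Ci against NS. Of 540 values of single members under the alternatives, 494 kept their direction and side of the threshold, 2 lost a call, 32 gained one and 12 changed sign; the cause was not tested. Members called numbered 0, 0 and 2. DESeq2 called 3, 2 and 5 and a threshold of 0.10 called 2, 2 and 5; in the first comparison 2 were called without TMM, with no filter, or with only the 2 groups fitted. With 1 library left out the ranges were 0 to 2, 0 to 1 and 1 to 3.

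Other clock genes called numbered 0, 0 and 0. DESeq2 called 3, 1 and 3, and the fit of only the 2 groups called 2, 1 and 1. In both comparisons with SA:ANH-KDM5Ci, limma-voom called 1 and 1, no robust moderation 1 and 1, and a threshold of 0.10 called 1 and 3. In the last, DESeq2 size factors and no filter each called 1. With 1 library left out the ranges were 0 to 1, 0 to 1 and 0 to 2.

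Over all genes 2, 380 and 601 were called. In the first comparison DESeq2 called 81, library size without TMM 11, no filter 11, only the 2 groups 17 and a threshold of 0.10 15. In the second, thresholds of 0.01 and 0.10 gave 171 and 593, and in the last 227 and 1017. With 1 library left out the ranges were 2 to 17, 203 to 429 and 269 to 747.

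The sign changes were all in members that were not called. In SA:ANH-KDM5Ci against SA:ANH-vehicle the log2 fold change of Tef was 0.0074 without SA:ANH-KDM5Ci replicate 2, 0.0026 without its replicate 3 and 0.0027 without SA:ANH-vehicle replicate 2. That of Hlf was 0.0086 without SA:ANH-KDM5Ci replicate 3 and 0.03 without SA:ANH-vehicle replicate 1. That of Nfil3 was 0.0039 with the replicate block, 0.08 without SA:ANH-KDM5Ci replicate 1 and 0.09 without SA:ANH-vehicle replicate 1. That of Rora was -0.0027 without SA:ANH-vehicle replicate 2 and -0.13 without replicate 3. In SA:ANH-vehicle against NS, that of Nfil3 was 0.0079 without NS replicate 1 and that of Rora -0.09 without SA:ANH-vehicle replicate 1. With 1 library left out, the ranges between the stressed groups were -0.08 to 0.0074 for Tef, -0.09 to 0.03 for Hlf, -0.12 to 0.09 for Nfil3 and -0.13 to 0.28 for Rora. In SA:ANH-vehicle against NS they were -0.39 to 0.0079 for Nfil3 and -0.09 to 0.32 for Rora.

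Replicate numbers are shared by the groups. Same-numbered libraries correlated from -0.144 to 0.238, with 3 of 9 pairs over 0.1, and 8 of 18 comparisons were best with the own number. Replicate 1 of NS, SA:ANH-vehicle and SA:ANH-KDM5Ci had the highest sum of its group for oligodendrocyte markers (2944, 2954 and 3451 CPM) and striatal markers (231, 200 and 414 CPM). The labels do not say whether the numbers pair the samples, and these values cannot decide it. With the replicate block 0, 0 and 3 members, 0, 0 and 0 other clock genes, and 2, 363 and 708 of all genes were called. Depth limits the members of lowest count most, with 244 counts of Rora in a library against 17002 of Tef.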
